A study of Mus musculus with 6 samples.

Results

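The genes described here encode the latent TGF-beta binding proteins (Ltbp1, Ltbp2, Ltbp3 and Ltbp4), the TGF-beta ligands (Tgfb1, Tgfb2 and Tgfb3) and the TGF-beta receptors (Tgfbr1, Tgfbr2 and Tgfbr3) in cells of the mouse lung. They were taken by gene symbol, and 10 of 10 were found among the 32285 features of the count tables. AML lungs were infiltrated by acute myeloid leukaemia of the genotype Trp53 R172H/Δ (AML 1, 2 and 3), and normal lungs served as the Control (Control 1, 2 and 3). Per the labels, lungs were digested with Liberase and DNaseI, non-haematopoietic niche cells were sorted, and sorted GFP+ leukaemia cells were added to the AML suspensions at 20%, with 80% niche cells. Libraries were made with the 10x Genomics 3′ kit (v3.1), so a transcript was counted near its 3′ end as unique molecular identifiers (UMIs). The labels give no strain, age, batch or date, and do not say that the libraries come from separate animals, so p-values here measure the spread between libraries.

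TGF-beta ligands are secreted in a latent form, folded together with their own propeptide. Latent TGF-beta binding proteins join that complex inside the cell, and anchor it on fibrillin microfibrils outside, where integrins and proteases release the ligand. The free ligand is held by betaglycan, the product of Tgfbr3, and signals through a complex of the type II receptor (Tgfbr2) and the type I receptor (Tgfbr1). In mice, Ltbp4 is also needed for elastic fibre assembly in the lung, and Ltbp2 binds fibrillin without binding the latent ligand.

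The 3 AML and 3 Control libraries held between 19060359 and 46018541 UMIs, and 14910 AML and 8835 Control cells were used. A total of 84 barcode sequences occurred in more than 1 library. Cells were clustered and given class names from fixed marker lists, so each name stands for resemblance by markers. Of 26 clusters, 19 were named and formed 16 classes. The 7 unnamed clusters held 4942 AML and 1932 Control cells. In 8 classes every library had at least 20 cells, and those classes were tested. Each of the 8 had at least 6 of its own markers at 10 CPM or more, where CPM is a gene's count per 1000000 UMIs of that class and library. The venous class also held all 7 general capillary markers at that level, at 7948 CPM summed, beside 7976 CPM for its own 7. The arterial class held 6 of 7 general capillary markers (5440 CPM summed) and 5 of 7 venous markers (2587 CPM), beside 1596 CPM for its own 7. These 2 names are thus not exclusive of other vessel types. The smooth muscle class also held all 7 pericyte markers at that level, so by these markers it is not smooth muscle alone. It also carried endothelial marker RNA, at 1093 to 5836 CPM summed over 7 markers in AML libraries and 1921 to 3650 CPM in Control libraries. General capillary cells averaged 3280 to 4382 UMIs per cell in AML libraries and 5572 to 10632 UMIs in Control libraries. In the other tested classes as well, each AML average lay below each Control average, except in alveolar type 2 cells. Averages there overlapped, at 11924 to 13412 UMIs in AML libraries and 10154 to 20752 UMIs in Control libraries. Control 1 was the low library there, with 217 of its 322 cells from cluster 1 and a median of 2624 UMIs per cell. Medians were 21166.5 UMIs in Control 2 and 17951.5 UMIs in Control 3, against 11907 to 13615.5 UMIs in AML libraries. The part of depth in the results was not tested.

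Ltbp4 lies on chromosome 7 (GRCm38, 27305136 to 27337692, minus strand) and Ltbp3 on chromosome 19 (5740904 to 5758532, plus strand), and both gave log2 changes below 0 in every class tested. Their start regions are shown because Ltbp4 carries the lower levels described below and Ltbp3 gave values of the same sign. Sequences are from RefSeq (GRCm38.p6), 250 bases before to 50 bases after the start, read along the gene's strand, with entries for 8 of the 10 genes. Capitals mark CAGAC, the core of the SMAD binding element, or GGGCGG, the GC box, searched on both strands. CAGAC was found in 49.6% and GGGCGG in 35.7% of all 32851 promoter windows of 300 bases.
Ltbp4, upstream start, chr7:27337563-27337862, minus strand: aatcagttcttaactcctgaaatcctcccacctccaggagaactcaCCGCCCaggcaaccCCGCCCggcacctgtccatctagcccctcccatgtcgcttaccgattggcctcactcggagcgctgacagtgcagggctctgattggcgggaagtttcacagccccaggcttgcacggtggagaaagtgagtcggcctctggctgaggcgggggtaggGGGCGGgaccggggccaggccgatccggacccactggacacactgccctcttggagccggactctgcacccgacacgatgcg
Ltbp4, downstream start, chr7:27333599-27333898, minus strand: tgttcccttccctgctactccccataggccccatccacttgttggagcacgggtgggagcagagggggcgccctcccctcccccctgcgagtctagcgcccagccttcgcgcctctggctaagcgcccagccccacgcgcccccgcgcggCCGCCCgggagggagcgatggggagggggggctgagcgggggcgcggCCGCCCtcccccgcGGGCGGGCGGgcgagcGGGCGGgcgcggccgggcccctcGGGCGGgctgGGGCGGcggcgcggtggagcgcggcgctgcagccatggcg
Ltbp3, chr19:5740650-5740949, plus strand: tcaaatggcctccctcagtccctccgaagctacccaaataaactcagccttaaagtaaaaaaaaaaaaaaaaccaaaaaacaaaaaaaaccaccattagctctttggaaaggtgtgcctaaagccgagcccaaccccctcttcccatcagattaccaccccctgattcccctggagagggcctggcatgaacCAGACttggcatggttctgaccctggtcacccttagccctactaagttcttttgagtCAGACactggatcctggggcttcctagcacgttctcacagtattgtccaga
The upstream Ltbp4 window held 3 matches to GGGCGG and the downstream window 7, and neither held CAGAC. The Ltbp3 window held 2 matches to CAGAC and none to GGGCGG. The 2 motifs shared 0 bases in these windows. The GC content was 64.3% and 80.3% in the Ltbp4 windows, and 48% in the Ltbp3 window.

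The latent TGF-beta binding proteins differed in the classes that held their RNA (the heat map of levels by class). Levels are described without a test, because the clusters were formed from the same cells. Over all 6 libraries, Ltbp4 averaged 671 ± 280 CPM (SD, n = 6 here and in the next sentences) in arterial endothelial cells and 643 ± 217 CPM in alveolar fibroblasts, and the ranges of these classes overlapped. Ltbp1 was highest in alveolar fibroblasts at 222 ± 33.5 CPM, followed by smooth muscle at 177 ± 78.7 CPM and venous cells at 119 ± 47.6 CPM, all with overlapping ranges. Ltbp2 was high in smooth muscle alone among the 8 classes, at 139 ± 43.1 CPM, above the range of alveolar fibroblasts at 16.8 ± 14.7 CPM. Ltbp3 stood at 59.0 ± 21.6 CPM in alveolar type 2 cells and 59.96 ± 19.8 CPM in alveolar fibroblasts, with overlapping ranges. Smooth muscle overlapped both, at 15.6 to 48.8 CPM in AML libraries and 42.1 to 119 CPM in Control libraries.

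The ligands divided between endothelium and mesenchyme. Tgfb1 averaged 124 ± 25.1 CPM in aerocytes, the capillary cells of the gas exchange surface, 111 ± 26.0 CPM in arterial cells, 88.5 ± 12.3 CPM in general capillary cells and 77.4 ± 16.5 CPM in venous cells. These neighbours overlapped, and the next class, smooth muscle at 34.2 ± 11.7 CPM, lay below all of the venous libraries. Tgfb2 was highest in smooth muscle at 158 ± 82.0 CPM and next in venous cells at 56.4 ± 22.8 CPM. Tgfb3 was highest in smooth muscle at 60.1 ± 24.8 CPM and alveolar fibroblasts at 47.9 ± 30.8 CPM, and at or below 12.0 CPM in each library of the other 6 tested classes.

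Among the receptors, Tgfbr2 averaged 446 ± 138 CPM in alveolar fibroblasts, above the range of every other tested class. Tgfbr3 averaged 469 ± 253 CPM there and 161 ± 78.6 CPM in smooth muscle, and these ranges overlapped, since smooth muscle of AML 2 reached 318 CPM. Tgfbr1 was spread more evenly, with 57.3 ± 19.9 CPM in alveolar fibroblasts, 51.1 ± 19.3 CPM in smooth muscle and 27.8 ± 4.195 CPM in general capillary cells.

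**Figure D1:**
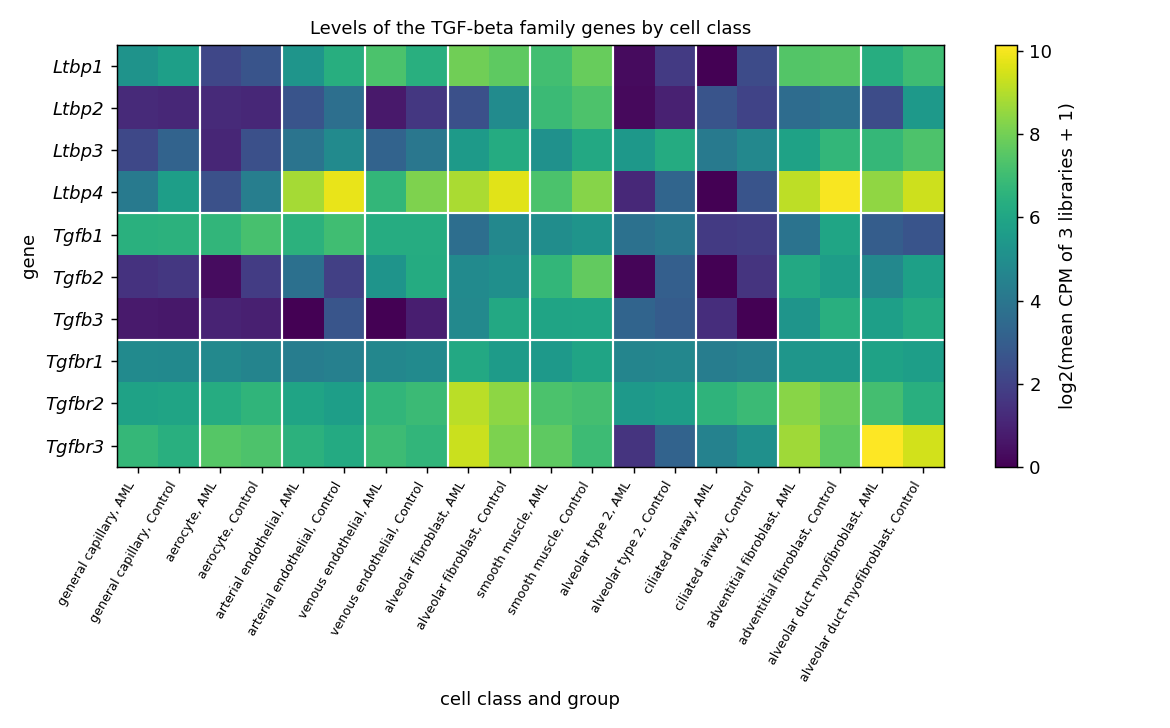
Heat map of the 10 genes (rows) in the 8 tested classes and 2 untested fibroblast classes (columns, AML left of Control in each pair), colour giving log2(mean CPM of 3 libraries + 1). Ltbp4 is bright in arterial cells and fibroblasts, Tgfb1 in the endothelial classes, and Tgfbr2 and Tgfbr3 in alveolar fibroblasts.

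AML was compared with Control on UMIs summed per library and class, with edgeR's quasi-likelihood test. P-values were adjusted by Benjamini-Hochberg over every gene tested in that class, and those below 0.05 count as passed. Of 80 pairs of a member gene and a class, 52 passed the filter on low counts and 28 did not. A total of 4 pairs passed the threshold, 1 higher and 3 lower in AML. In general capillary cells 1 of 9 tested members was called, where 3.83% of all genes tested were. An unadjusted p below 0.05 was found there for 2 of the 9, and for 2692 of 11529 genes in all. In venous cells 1 of 8 was called, against 0.402% of all genes, and 3 of 8 had such an unadjusted p, as had 1038 of 8702 genes. In alveolar fibroblasts 2 of 8 were called, against 3.08% of all genes, and 5 of 8 had such an unadjusted p, as had 997 of 6162 genes.

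In the other 5 classes edgeR called 0 members. In aerocytes 3.11% of all genes were called, and an unadjusted p below 0.05 was found for 1 of 4 tested members and for 1382 of 8983 genes. In arterial cells 0.402% were called, and 3 of 5 members and 665 of 5717 genes had such a p. In smooth muscle 0.0140% were called, and 3 of 10 members and 504 of 7163 genes had such a p. For alveolar type 2 cells 1.45% were called, and 1 of 5 members and 1896 of 10019 genes had such a p. In ciliated cells 0.599% were called, and 0 of 3 members and 625 of 6843 genes had such a p. DESeq2 called 0 members in these 5 classes too.

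**Figure D2:**
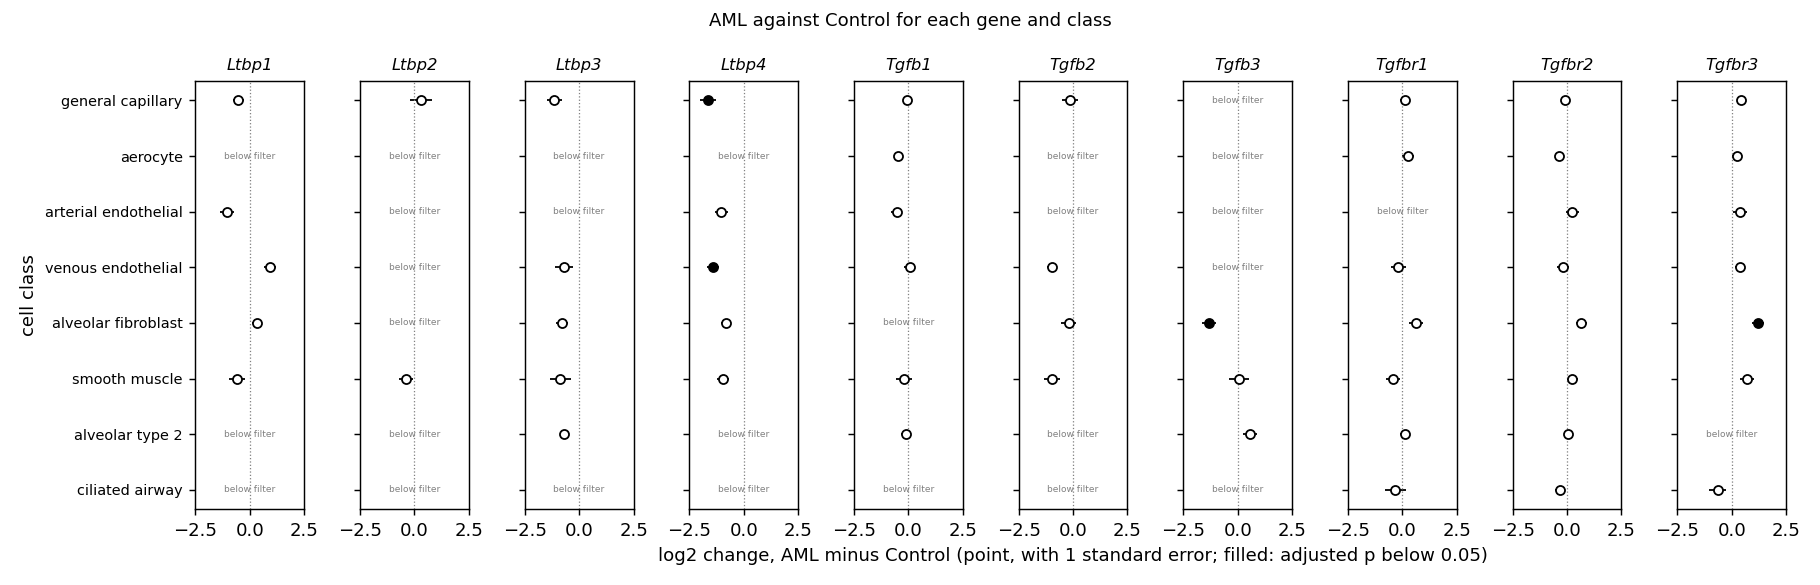
Log2 change, AML minus Control, of each gene (panels) in each tested class (rows), points with 1 standard error from edgeR. Filled points passed the adjusted threshold of 0.05: Ltbp4 in general capillary and venous cells, Tgfb3 and Tgfbr3 in alveolar fibroblasts.

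Ltbp4 RNA was lower in AML in general capillary cells, the largest class. It stood at 27.5, 7.57 and 15.2 CPM in AML 1, 2 and 3, against 58.2, 35.3 and 60.4 CPM in Control 1, 2 and 3. The 3 AML libraries all lay below the 3 Control libraries. Such a gap, in either direction, was found for 28.9% of all genes tested in this class. The values rest on 291 UMIs in AML and 1290 UMIs in Control. Ltbp4 fell by 1.65 ± 0.38 on the log2 scale (SE; edgeR adjusted p = 0.0495).

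The call in general capillary cells was lost without AML 2 (edgeR adjusted p = 0.0565), AML 3 (0.178), Control 1 (0.176), Control 2 (0.0688) or Control 3 (0.161). It was also lost with no filter on low counts (0.126), and held without AML 1 (0.00413). General capillary cells of the 2 groups came largely from different clusters. Cluster 2 held 274, 6 and 26 cells of AML 1, 2 and 3 and 714, 1614 and 1413 cells of Control 1, 2 and 3. Cluster 4 held 624, 249 and 2244 AML cells and 4, 73 and 25 Control cells, and cluster 7 held 57, 1734 and 270 AML cells and 0, 5 and 2 Control cells. Within cluster 2, Ltbp4 was 15.2 CPM in AML 1 and 15.7 CPM (1 UMI) in AML 3, against 57.6, 33.6 and 57.6 CPM in Control 1, 2 and 3. Within cluster 4 it was 34.8, 10.96 and 15.3 CPM in AML 1, 2 and 3, against 98.8 CPM in Control 2 and 311 CPM (25 cells) in Control 3. In both clusters each AML library shown lay below each Control library shown. AML 2, with 6 cells in cluster 2, is left out there, and AML 3 rests on 1 UMI. Control cells in cluster 4 were 73 and 25 in Control 2 and 3. Unnamed clusters 3 and 5 were also led by general capillary markers. In cluster 3 Ltbp4 was 27.1, 21.4 and 5.39 CPM in AML, against 81.8, 23.0 and 59.1 CPM in Control, which overlapped. In cluster 5 it was 14.2, 6.80 and 5.77 CPM in AML, against 27.8 and 46.0 CPM in Control 2 and 3. The share of all genes apart was not counted within clusters. Whether the fall holds within a cluster was not tested.

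Free RNA was gauged in T or NK cells, which are not expected to make Ltbp4. They had 0 Ltbp4 UMIs in each of the 3 AML libraries, where 3 UMIs would allow up to 20.8 CPM in the shallowest of them, against 6.51, 0 and 8.41 CPM in Control 1, 2 and 3. In the neutrophil class Ltbp4 was 2.45, 0 and 0 CPM in AML, against 68.9 (13 UMIs), 0 and 14.2 CPM in Control. In B cells it was 0, 0 and 5.11 CPM in AML, against 32.5 (2 UMIs), 3.77 and 6.14 CPM in Control. Control 1 held 9 cells of the neutrophil class and 8 B cells. In general capillary cells summed platelet markers stood at 17.8 to 18.5 CPM in AML and 28.2 to 58.3 CPM in Control, and summed mesenchymal markers at 4.21 to 8.64 CPM in AML and 7.86 to 12.7 CPM in Control. Summed erythroid markers there were 7.69 to 16.6 CPM in AML and 60.8 to 409 CPM in Control. The part of free RNA and of these cells in the Ltbp4 result was not tested.

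In venous cells Ltbp4 was also lower in AML, at 136, 55.7 and 118 CPM in AML 1, 2 and 3, against 367, 215 and 290 CPM in Control 1, 2 and 3. The groups did not overlap, as was so in either direction for 19.2% of all genes in the class. It fell by 1.41 ± 0.28 on the log2 scale (SE; edgeR adjusted p = 0.0464). The call was lost without AML 2 (0.0776), AML 3 (0.242), Control 1 (0.233), Control 2 (0.0572) or Control 3 (0.176), and at Leiden resolution 0.5 (0.0519). Summed mesenchymal markers were 1.86 to 7.65 CPM in AML and 4.45 to 50.1 CPM in Control venous cells. Summed erythroid markers were 3.72 to 9.48 CPM in AML and 24.2 to 840.1 CPM in Control, and summed platelet markers 3.40 to 5.57 CPM in AML and 11.3 to 45.5 CPM in Control, with the groups apart for both. Their part in the result was not tested.

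The remaining 3 classes in which Ltbp4 was tested gave values in the same direction that did not pass. In arterial cells it was 649, 290.3 and 382 CPM in AML 1, 2 and 3, against 945, 875 and 885 CPM in Control 1, 2 and 3 (log2 change -1.02 ± 0.29, edgeR adjusted p = 0.128). In alveolar fibroblasts it was 455, 419 and 515 CPM in AML, against 971, 711 and 789 CPM in Control (-0.82 ± 0.25, adjusted p = 0.0810). In smooth muscle it was 151, 151 and 165 CPM in AML, against 447, 257 and 256 CPM in Control (-0.97 ± 0.28, adjusted p = 0.435). The AML libraries lay below the Control libraries in all 5 classes tested for Ltbp4, which share the same 6 libraries and so are not independent. Genes with groups apart in either direction made up 18.1% of those tested in arterial cells, 20.5% in alveolar fibroblasts and 13.0% in smooth muscle. DESeq2 called Ltbp4 in alveolar fibroblasts (adjusted p = 0.0240).

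Classes too small to test gave further Ltbp4 values. In alveolar duct myofibroblasts it was 418, 332 and 320.2 CPM in AML 1, 2 and 3, against 741, 589.9 and 667 CPM in Control 1, 2 and 3. In adventitial fibroblasts, with 12 to 36 cells per AML library and 17 to 28 per Control library, it was 633, 544 and 498 CPM in AML, against 1309.7, 965 and 921 CPM in Control. Every AML library was the lower one in both. The share of all genes with groups apart was not counted in these untested classes, so these gaps add no support. In mesothelial cells, with 14 to 22 AML cells and 6 to 9 Control cells per library, the groups overlapped, at 744, 517 and 516 CPM in AML against 512, 1207 and 1085 CPM in Control.

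Aerocytes, alveolar type 2 and ciliated cells had little Ltbp4 and did not pass the filter. In aerocytes it was 5.77, 2.49 and 6.06 CPM in AML, against 43.4, 7.68 and 6.25 CPM in Control. In alveolar type 2 cells it was 0.33, 2.63 and 0.717 CPM in AML, against 21.4, 3.36 and 2.03 CPM in Control. Control 1 was high in both classes. In alveolar type 2 cells summed endothelial markers were 46.5 to 133 CPM in AML and 97.4 to 1182 CPM in Control, and cluster 1, with 217 of its 226 cells from Control 1, held Ltbp4 at 140.4 CPM in that library. The part of that RNA was not tested.

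**Figure D3:**
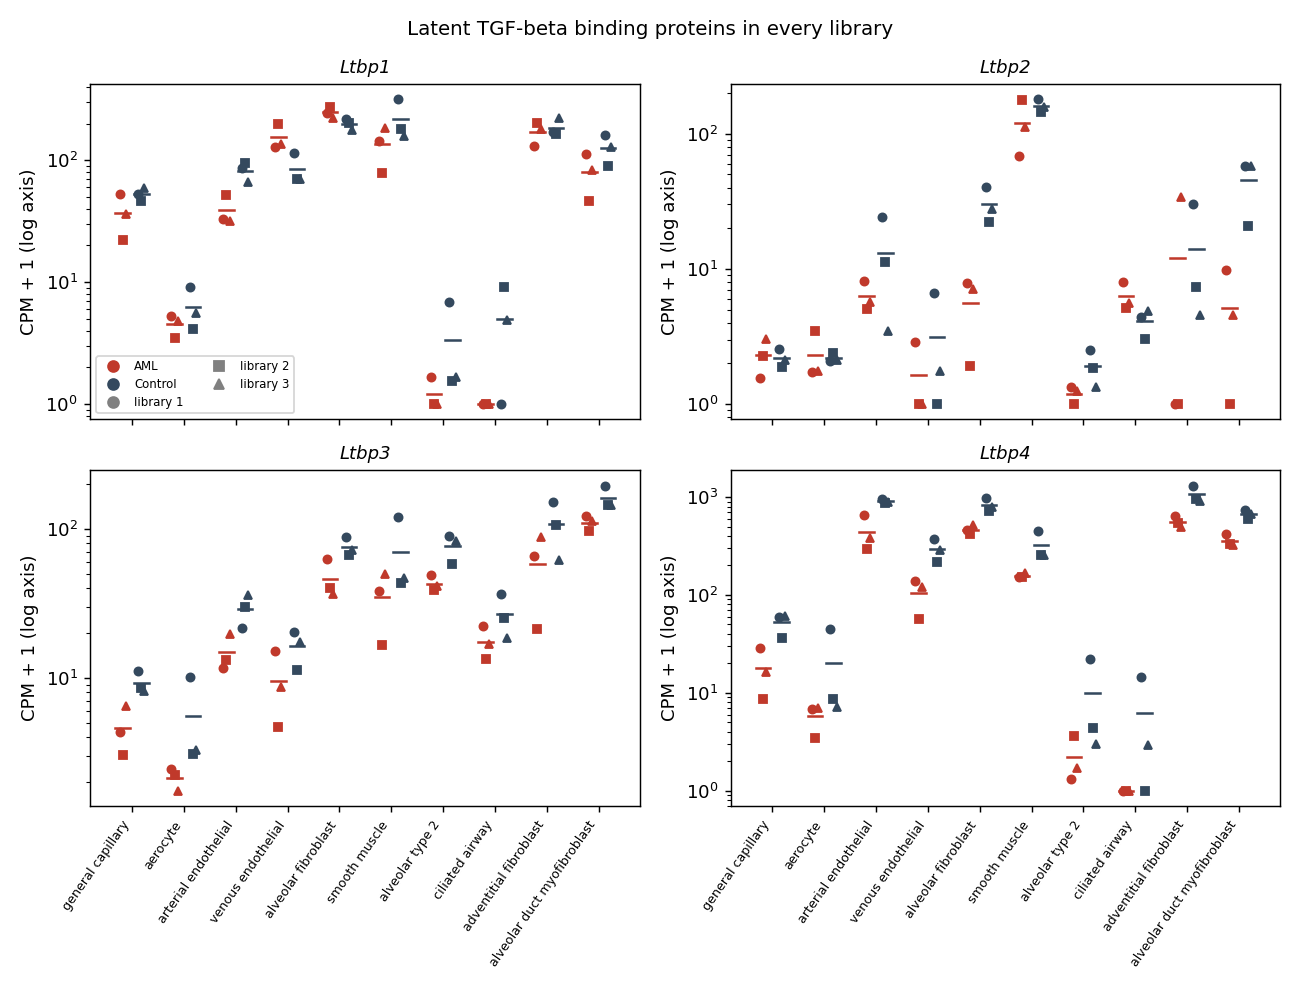
CPM + 1 (log axis) of Ltbp1 to Ltbp4 in each of 6 libraries, for the 8 tested and 2 untested classes, AML (red) left of Control (dark), bars giving the mean of 3 libraries. The Ltbp4 panel has all AML points below all Control points in arterial, venous and general capillary cells, smooth muscle and the 3 fibroblast classes. For the 2 untested classes the share of all genes apart was not counted.

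Ltbp3, another binding protein of latent TGF-beta, had log2 changes below 0 in the 5 classes where it was tested, between -1.13 and -0.68. None passed in the main fit. In alveolar type 2 cells it was 47.8, 37.9 and 40.1 CPM in AML 1, 2 and 3, against 88.4, 57.4 and 82.2 CPM in Control 1, 2 and 3. The groups did not overlap there, as was so in either direction for 26.0% of genes (log2 change -0.68 ± 0.18, edgeR adjusted p = 0.0611). In edgeR it passed there without clusters mostly of 1 library (adjusted p = 0.0198), with the replicate block (0.0448), with no filter on low counts (0.0140) and without Control 2 (0.0392). It did not pass under the other settings. In Control 1, cluster 1 held Ltbp3 at 23.8 CPM and cluster 9 at 99.0 CPM. In general capillary cells it was 3.37, 2.07 and 5.52 CPM in AML, against 10.1, 7.63 and 7.23 CPM in Control, also apart (-1.13 ± 0.34, adjusted p = 0.0877). Among the alternatives it passed there only with equal cells per library (edgeR adjusted p = 0.0435) and with no filter on low counts (0.0171). In alveolar fibroblasts it was 61.4, 38.8 and 35.3 CPM in AML, against 87.3, 66.1 and 70.9 CPM in Control, again apart (-0.78 ± 0.28, adjusted p = 0.157). The other 2 tested classes, venous cells and smooth muscle, overlapped.

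Ltbp1, a carrier of latent TGF-beta in matrix, took opposite signs among vessels, with neither value past the threshold. In venous cells it was 128, 197 and 135 CPM in AML 1, 2 and 3, against 114, 69.6 and 69.4 CPM in Control 1, 2 and 3 (log2 change 0.93 ± 0.27, edgeR adjusted p = 0.160). In arterial cells it was 32.1, 51.1 and 30.5 CPM in AML, against 85.4, 93.7 and 64.8 CPM in Control (-1.06 ± 0.32, adjusted p = 0.154). The groups were apart in both classes, with AML high in venous and low in arterial cells. Its general capillary values were 51.7, 21.1 and 35.0 CPM in AML, against 51.9, 45.2 and 58.7 CPM in Control, which overlapped. In alveolar fibroblasts it was 241, 273 and 221 CPM in AML, against 218, 201 and 176 CPM in Control, apart by a small margin (0.32 ± 0.23, adjusted p = 0.527). The venous effect was not set against the arterial effect in a test.

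Ltbp2 was tested in general capillary cells and smooth muscle only, and passed in neither. In smooth muscle it was 68.0, 177 and 111 CPM in AML, against 179.96, 145 and 156 CPM in Control, which overlapped (log2 change -0.39 ± 0.31, edgeR adjusted p = 0.832). In alveolar fibroblasts, where it was below the filter, it was 6.83, 0.902 and 6.06 CPM in AML (3, 1 and 6 UMIs), against 39.0, 21.1 and 26.9 CPM in Control (17, 8 and 11 UMIs). In alveolar duct myofibroblasts it was 8.89, 0 and 3.60 CPM in AML, against 57.0, 19.8 and 56.4 CPM in Control. All AML libraries were the lower ones in both fibroblast classes. The share of genes apart was counted neither below the filter nor in the untested class.

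Tgfb3, the ligand gene of smooth muscle and fibroblasts, was lower in AML in alveolar fibroblasts. It stood at 22.8, 28.9 and 28.3 CPM in AML 1, 2 and 3, against 48.2, 105.7 and 53.7 CPM in Control 1, 2 and 3. The groups did not overlap, as was so in either direction for 20.5% of all genes in the class, and Control 2 was the high library. Tgfb3 fell by 1.31 ± 0.34 on the log2 scale (SE; edgeR adjusted p = 0.0397), on 70 UMIs in AML and 83 UMIs in Control. The call was lost without AML 1 (0.0814), AML 2 (0.113), AML 3 (0.101), Control 2 (0.196) or Control 3 (0.0707), and by DESeq2 (adjusted p = 0.0529).

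In smooth muscle Tgfb3 overlapped between groups, at 19.4, 62.6 and 95.8 CPM in AML and 70.3, 55.5 and 56.9 CPM in Control. In alveolar duct myofibroblasts it was 79.98, 35.2 and 43.2 CPM in AML, against 96.9, 69.4 and 51.3 CPM in Control, which overlapped too. In alveolar type 2 cells it was 5.28, 12.0 and 9.08 CPM in AML, against 6.12, 6.16 and 7.78 CPM in Control.

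Tgfb2 had log2 changes below 0 in its 4 tested classes and passed in none. Its venous values were 38.8, 33.4 and 38.3 CPM in AML 1, 2 and 3, against 89.7, 68.2 and 70.2 CPM in Control 1, 2 and 3, with the groups apart (log2 change -0.97 ± 0.23, edgeR adjusted p = 0.0831). In smooth muscle it was 56.7, 141 and 113 CPM in AML, against 294, 139 and 203 CPM in Control, which overlapped (-0.97 ± 0.36, adjusted p = 0.638). In arterial cells, below the filter, it was 14.3, 16.4 and 7.04 CPM in AML (4, 8 and 3 UMIs), against 2.59, 3.41 and 2.49 CPM in Control (1, 2 and 1 UMIs).

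Tgfb1, the ligand gene of endothelium and leukocytes, passed in none of its 6 tested classes. In aerocytes, where it is highest among the tested classes, it was 95.9, 98.4 and 112.9 CPM in AML 1, 2 and 3, against 139.3, 144.6 and 154.5 CPM in Control 1, 2 and 3. These groups were apart, as was so in either direction for 22.7% of genes (log2 change -0.47 ± 0.19, edgeR adjusted p = 0.219). In arterial cells it was 107, 71.5 and 91.5 CPM in AML, against 142, 124 and 127 CPM in Control, also apart (-0.54 ± 0.25, adjusted p = 0.416). Its general capillary values were 78.6, 101.1 and 77.2 CPM in AML, against 106.6, 83.3 and 84.1 CPM in Control, and the groups overlapped (-0.05 ± 0.18, adjusted p = 0.904). In alveolar fibroblasts, below the filter, it was 11.4, 9.93 and 14.1 CPM in AML, against 34.4, 23.8 and 19.5 CPM in Control.

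Tgfbr3, which encodes betaglycan, was higher in AML in alveolar fibroblasts. It stood at 485, 930.4 and 538 CPM in AML 1, 2 and 3, against 319, 262 and 279 CPM in Control 1, 2 and 3. The groups did not overlap, as was so in either direction for 20.5% of all genes in the class, and AML 2 was the highest library. The log2 change was 1.21 ± 0.28 (SE; edgeR adjusted p = 0.0233), on 1777 UMIs in AML and 352 UMIs in Control. The call was lost without AML 2 (adjusted p = 0.137) or Control 3 (0.125), and with the replicate block (0.0552).

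**Figure D4:**
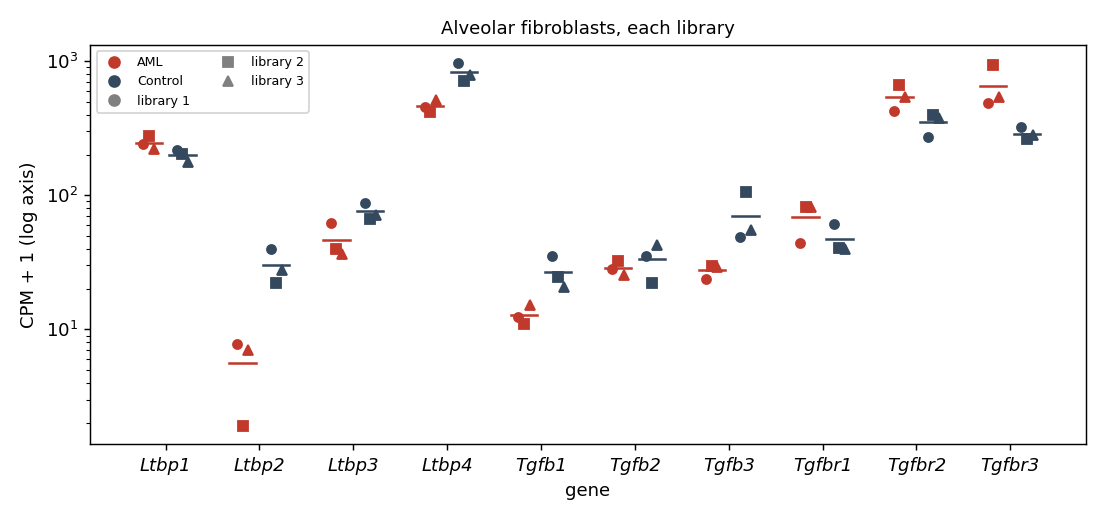
CPM + 1 (log axis) of the 10 genes in alveolar fibroblasts of each library, AML (red) left of Control (dark), bars giving the mean of 3 libraries. Tgfbr3 lies higher and Tgfb3 lower in the 3 AML libraries, and Ltbp4, Ltbp3, Ltbp2 and Tgfb1 also lie lower without passing the test or the filter. Ltbp1 and Tgfbr2 also lie higher without passing the test. Groups were apart in either direction for 20.5% of all genes tested in this class.

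In adventitial fibroblasts Tgfbr3 was 426, 484 and 350.3 CPM in AML, against 176, 236 and 176 CPM in Control, with every AML library the higher one. The share of all genes with groups apart was not counted in this untested class. In alveolar duct myofibroblasts it was 902, 1399.7 and 1119 CPM in AML, against 923, 694 and 513 CPM in Control, where AML 1 lay below Control 1. In smooth muscle it was 118, 318 and 161 CPM in AML, against 128, 131 and 112 CPM in Control (log2 change 0.72 ± 0.33, edgeR adjusted p = 0.697). Over its 7 tested classes Tgfbr3 gave 6 log2 changes above 0 and 1 below 0, that of ciliated cells (-0.64 ± 0.39, adjusted p = 0.636).

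Tgfbr2, the type II receptor, was 423, 666 and 542 CPM in alveolar fibroblasts of AML 1, 2 and 3, against 271, 396 and 379 CPM in Control 1, 2 and 3. The groups were apart, as were 20.5% of genes there in either direction, and the test was not passed (log2 change 0.66 ± 0.27, edgeR adjusted p = 0.206). In aerocytes it was 80.0, 84.7 and 63.6 CPM in AML, against 101.9, 87.3 and 111.3 CPM in Control, apart in the other direction (-0.36 ± 0.20, adjusted p = 0.434). In ciliated cells it was 91.7, 95.8 and 104.8 CPM in AML, against 122, 111 and 125 CPM in Control, apart as were 14.8% of genes there in either direction (-0.31 ± 0.23, adjusted p = 0.734). Its log2 changes over all 8 classes lay between -0.36 and 0.66, 4 below and 4 above 0.

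Tgfbr1, the type I receptor, was called in none of its 7 tested classes and its groups overlapped in each. Its log2 changes lay between -0.42 in smooth muscle and 0.63 in alveolar fibroblasts. In alveolar fibroblasts it was 43.2, 81.2 and 80.8 CPM in AML, against 59.7, 39.6 and 39.1 CPM in Control.

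The alveolar fibroblasts of the 2 groups also differed in other markers. Summed endothelial markers were 112 to 134 CPM in AML and 219 to 1454 CPM in Control, with all 7 present in every library but Control 2, where 6 were. Summed general mesenchymal markers were 3031 to 4407 CPM in AML and 6417 to 6566 CPM in Control, and summed erythroid markers 6.83 to 13.5 CPM in AML and 23.0 to 68.7 CPM in Control. The class held 105, 321 and 250 cells in AML 1, 2 and 3, and 42, 60 and 66 cells in Control 1, 2 and 3. The part of these differences in the Tgfb3 and Tgfbr3 results was not tested.

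Whether the AML effect differed between classes was tested for general capillary cells against each other class, with library as a block. Of 60 such tests of a member, 1 passed. The effect on Ltbp2 was lower in alveolar fibroblasts than in general capillary cells by a log2 difference of -3.03 ± 0.80 (SE; edgeR adjusted p = 0.0419), where 2.40% of all genes passed. It was lost with doublets kept and without AML 2, AML 3, Control 1, Control 2 or Control 3, each of which left 0 member interactions. For the other classes that share was 1.36% in aerocytes, 1.13% in arterial, 0.740% in venous, 0.0709% in smooth muscle, 0.0927% in alveolar type 2 and 0.992% in ciliated cells. Ltbp2 in general capillary cells was 0.561, 1.26 and 2.04 CPM in AML 1, 2 and 3, against 1.57, 0.88 and 1.12 CPM in Control 1, 2 and 3, so both sides rest on few UMIs. Ltbp2 was below the filter in alveolar fibroblasts by themselves, and entered this test through a filter over both classes. Its highest values there were those of Control fibroblasts, at 21.1 to 39.0 CPM, so the call is not taken as support for a difference. No such test passed for Ltbp4, Tgfb3 or Tgfbr3, and their calls are not shown to be limited to a class.

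The machinery around latent TGF-beta was read from 4 lists of other genes, described by counts. In alveolar fibroblasts, 4 of 11 tested genes of the fibrillin microfibril and elastic fibre list passed in edgeR, 1 higher and 3 lower, where 3.08% of all genes passed, and 10 of the 11 log2 changes were below 0. The list's median was -0.73, beside 0.01 for all genes tested, of which 49.3% were below 0. Fbln1, a fibulin of matrix and elastic fibres, fell by 2.19 ± 0.45 on the log2 scale (adjusted p = 0.0305), at 81.9, 17.1 and 51.5 CPM in AML, against 179, 296 and 161 CPM in Control. Lox, the lysyl oxidase that crosslinks elastin and collagen, rose by 2.13 ± 0.36 (adjusted p = 0.00322), at 1024, 2379 and 1194 CPM in AML, against 509.9, 238 and 325 CPM in Control. Lox is also among the 10 leading genes of the cluster that forms this class. Mfap4, a microfibril-associated protein, fell by 1.38 ± 0.34 (adjusted p = 0.0305). Mfap4 is also 1 of the general mesenchymal markers counted above. In the other tested classes 0 genes of the list passed in edgeR, and DESeq2 called 1 in general capillary and 1 in venous cells. List medians were -0.66 in general capillary (7 tested), -0.18 in venous (6) and -0.45 in smooth muscle cells (9). They were -1.26 in alveolar type 2 (3), 0.69 in aerocyte (3), 0.24 in arterial (8) and 0.31 in ciliated cells (1).

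Genes of TGF-beta latency, processing and activation gave 2 calls among 8 tested in alveolar fibroblasts, both lower, where 3.08% of all genes were called. Mmp2, a matrix metalloprotease, fell by 2.01 ± 0.26 on the log2 scale (edgeR adjusted p = 7.44e-04), at 104.7, 53.2 and 87.9 CPM in AML, against 331, 349 and 291 CPM in Control. Emilin1, which restrains maturation of the TGF-beta precursor, fell by 0.94 ± 0.25 (adjusted p = 0.0486). The list's median was -0.17 there, and 5 of 8 log2 changes were below 0.

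In general capillary cells 3 of 11 tested genes of that list passed, 2 higher and 1 lower, against 3.83% of all genes, with 6 of the 11 log2 changes below 0. Itgb3, the beta chain of the integrin alpha v beta 3, rose by 2.14 ± 0.35 on the log2 scale (edgeR adjusted p = 0.0193), at 10.4, 25.6 and 15.5 CPM in AML, against 3.14, 3.91 and 5.24 CPM in Control. Lrrc32, which encodes GARP, a cell-surface anchor of latent TGF-beta, rose by 0.81 ± 0.18 (adjusted p = 0.0392), at 141, 170.2 and 186 CPM in AML, against 108, 80.4 and 103 CPM in Control. Thbs1, thrombospondin, an activator of latent TGF-beta, fell by 0.87 ± 0.20 (adjusted p = 0.0414). In aerocytes 1 of 10 passed, against 3.11% of all genes: Itgb5, an integrin beta chain, fell by 1.17 ± 0.23 (adjusted p = 0.0111). In arterial, venous, smooth muscle, alveolar type 2 and ciliated cells 0 genes of that list passed in edgeR. DESeq2 called 1 in venous cells.

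Genes of signal transduction gave 1 call among 13 tested in alveolar fibroblasts, where 3.08% of all genes were called: Acvrl1, an alternative type I receptor, fell by 1.08 ± 0.26 on the log2 scale (edgeR adjusted p = 0.0263). In the other 7 classes 0 genes of that list passed in edgeR. At an unadjusted p below 0.05 were 4 of 15 in general capillary, 2 of 15 in aerocyte, 1 of 14 in arterial, 1 of 16 in venous, 0 of 12 in smooth muscle, 3 of 15 in alveolar type 2 and 0 of 8 in ciliated cells, beside the shares of all genes given above, and DESeq2 called 2, 2, 0, 1, 0, 0 and 0 in that order of classes. The list of TGF-beta induced genes gave 1 call, lower in AML, in each of 3 classes: of 11 tested in alveolar fibroblasts (3.08% of all genes called), of 10 in venous cells (0.402%) and of 10 in alveolar type 2 cells (1.45%). Col1a1, a chain of collagen I, fell by 1.66 ± 0.32 in alveolar fibroblasts (edgeR adjusted p = 0.00845). Ccn2 (CTGF) fell by 1.78 ± 0.35 in venous cells (adjusted p = 0.0464), at 89.1, 182 and 233 CPM in AML, against 422, 745 and 641 CPM in Control. Col4a1 fell by 0.95 ± 0.19 in alveolar type 2 cells (adjusted p = 0.0257), where endothelial marker RNA differed as given above. In the other 5 classes 0 genes of that list passed in edgeR, with 3 of 12 in general capillary, 3 of 10 in aerocyte, 1 of 10 in arterial, 0 of 11 in smooth muscle and 0 of 8 in ciliated cells at an unadjusted p below 0.05, and 1, 0, 0, 0 and 0 called by DESeq2.

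Over the 8 classes in both groups, 16 points in all, the genes whose pattern was most like Ltbp4 were Col5a2 (r = 0.978), Eln, which encodes elastin (0.970), and Ccn1 (0.970). Eln was also most like Ltbp1 (0.968). The genes most like Tgfb1 were Arhgap29 (0.985), Mcm3 (0.982) and Mad2l1bp (0.972). Tgfbr3 was most like Plpp3 (0.966), Tgfbr2 like Vegfd (0.959), Tgfbr1 like Rgs2 (0.947), Tgfb3 like Fzd2 (0.961), Tgfb2 like Pgm5 (0.942), Ltbp2 like Gpc6 (0.936) and Ltbp3 like Sesn3 (0.931). These are correlations of mean log2(CPM + 1) among 11921 genes that reach 10 CPM, and the points share libraries, so they describe the pattern only. Between members, Ltbp1 and Ltbp4 had an r of 0.921, and Tgfb1 and Ltbp3 one of -0.504.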

How the data were processed

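The authors deposited filtered UMI counts per gene and cell barcode, made with Cell Ranger on mm10; the submitters' processing notes give version 7.0.0 and the file headers 6.0.1. From these deposited counts, barcodes with under 500 genes or over 15% mitochondrial UMIs were left out, which kept 24640 of 28516, and 895 predicted doublets (0.8% per 1000 cells) were removed, leaving 23745 cells. Cells were clustered in scanpy 1.11.5 (2000 variable genes, 30 components, 15 neighbours, Leiden resolution 1.0) and named by fixed markers. UMIs were summed per library and class and tested in edgeR 4.0.16 (TMM, quasi-likelihood, a filter on low counts, Benjamini-Hochberg adjustment over all genes). DESeq2 1.42.0 was an alternative. Scripts were tested on simulated data.

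The member genes and gene lists were chosen with earlier results of these data known. Several other clustering settings were tried after seeing the files, and the first was kept. Conditions that leave clusters unnamed were added after seeing the clusters, the last with member levels in view; they leave out, among others, cluster 5, with 1318 AML and 391 Control cells. All 10 members are named in the tested classes, and from each list the called genes, at most 3 per class by size of change. Median UMIs per cell were 3723 to 4685.5 in AML and 4794.5 to 8323.5 in Control libraries. Limits from a count of 0 use 3 UMIs and cover counting error only. Replicate libraries differed beyond sampling noise (chi-square per degree of freedom at least 7.25). No member overlaps a gene on its own strand in GENCODE; Ltbp2, Ltbp3, Tgfb2 and Tgfb3 overlap genes on the other strand.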

Additional observations from a re-analysis of the deposited data

Results flagged for a closer look

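The AML effect on Ltbp2 differed between alveolar fibroblasts and general capillary cells by a log2 difference of -3.03 in edgeR's interaction test, the only 1 of 60 such member tests to pass. It was lost with doublets kept and without AML 2, AML 3, Control 1, Control 2 or Control 3 (0 member interactions in each case). It rests on 3, 1 and 6 UMIs in the fibroblasts of AML 1, 2 and 3, against 17, 8 and 11 UMIs in those of Control 1, 2 and 3. Ltbp2 was below the filter on low counts in alveolar fibroblasts by themselves. It entered through a filter over both classes, with Control fibroblasts highest, so the call is not taken as support for a difference.

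Clusters 23, 24 and 25 were found in AML libraries only and enter no comparison. They held 607, 1138 and 1094 cells in AML 1, 2 and 3, and stayed unnamed by the markers. Per the labels, sorted GFP+ leukaemia cells were added to the AML suspensions at 20%. Whether these clusters are those added cells was not tested. In each of the 3 libraries, 7 members lay above that library's own limit for a count of 0, which was 0.166 CPM in AML 1, 0.114 CPM in AML 2 and 0.132 CPM in AML 3. Tgfb3 lay above it in AML 2 and AML 3 and below it in AML 1, at 0.055, 0.191 and 0.264 CPM in AML 1, 2 and 3. Tgfb1 averaged 75.6 CPM, at 69.7, 80.5 and 76.6 CPM in AML 1, 2 and 3. Ltbp1 averaged 14.3 CPM, at 9.44, 12.3 and 21.1 CPM. Tgfbr1 averaged 10.7 CPM, Tgfbr3 5.16 CPM, Ltbp4 0.741 CPM, Tgfbr2 0.538 CPM and Tgfb2 0.421 CPM. The part of free RNA from other cells in the lowest of these was not tested.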

How the results depend on the processing

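Counts of called members moved under some alternatives. With equal cells per library they were 2 in general capillary cells (main 1), 2 in venous cells (main 1), 1 in alveolar fibroblasts (main 2) and 1 in smooth muscle (main 0). With no filter on low counts they were 1 in aerocytes and 1 in arterial cells (main 0 each), 3 in venous cells, 5 in alveolar type 2 cells (main 0), and 5 interactions (main 1). Leiden resolution 0.5 gave 0 in venous cells and could not be tested in general capillary cells, and doublets kept gave 0 interactions. Leaving out clusters mostly of 1 library gave 1 in alveolar type 2 cells (Ltbp3, edgeR adjusted p = 0.0198). Leaving out 1 library at a time gave 0 to 2 calls in general capillary cells, venous cells and alveolar fibroblasts, 0 to 1 in arterial and alveolar type 2 cells, 0 in aerocytes, smooth muscle and ciliated cells, and 0 to 5 interactions. The cause was not tested.

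AML and Control libraries share replicate numbers, but correlations of same-numbered libraries lay between -0.198 and 0.105, so the numbers are not taken as pairs. With the replicate block, alveolar fibroblasts had 1 call, Tgfb3 (edgeR adjusted p = 0.0468), and the call of Tgfbr3 was lost (0.0552). Alveolar type 2 cells had 1 call there (Ltbp3, 0.0448).

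Of 716 alternative log2 changes, 26 changed sign, none of them of a member in a class where it was called. Under settings that keep all libraries these were, in general capillary cells, Tgfb2 at 0.0082 and Tgfbr1 at -0.10 without clusters mostly of 1 library, and Tgfbr2 at 0.019 with doublets kept. In smooth muscle they were Tgfb3 at -0.14 with the replicate block and -0.31 with equal cells, and Tgfb1 at 0.10 with equal cells. In alveolar type 2 cells they were Tgfb1 at 0.12 and Tgfbr2 at -0.068 with equal cells. Leaving out 1 library at a time gave both signs for some uncalled members. For general capillary cells the lowest and highest log2 changes were -0.28 and 0.040 for Tgfb2, -0.095 and 0.24 for Tgfbr1, -0.22 and 0.048 for Tgfb1, and -0.16 and 0.54 for Ltbp2. In venous cells they were -0.53 and 0.019 for Tgfbr1, -0.20 and 0.27 for Tgfb1, and -0.50 and 0.011 for Tgfbr2. In smooth muscle they were -0.63 and 0.048 for Tgfb1 and -0.65 and 0.53 for Tgfb3. In alveolar type 2 cells they were -0.017 and 0.19 for Tgfbr1 and -0.084 and 0.14 for Tgfbr2. They were -0.38 and 0.016 for Tgfb2 in alveolar fibroblasts, and -0.86 and 0.15 for Tgfbr1 in ciliated cells. Adding the unnamed clusters led by general capillary markers, chosen after seeing the data, left Ltbp4 called there at -1.82 (edgeR adjusted p = 0.0262). At this depth 28 of 80 pairs of a member and a class did not pass the filter on low counts and were not tested.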

Other observations

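Classes too small to test also held Tgfb1. In B cells it was 95.5, 75.5 and 81.8 CPM in AML 1, 2 and 3, against 114, 132 and 215 CPM in Control 1, 2 and 3. In T or NK cells it was 69.0, 26.3 and 55.6 CPM in AML, against 91.1, 78.0 and 98.1 CPM in Control. The AML libraries lay below the Control libraries in both, with 8 to 54 B cells and 15 to 67 T or NK cells per Control library. The share of all genes with groups apart was not counted in these untested classes. In the neutrophil class, which also holds monocytes, it was 186, 132 and 220.4 CPM in AML, against 122, 271 and 256 CPM in Control, and the groups overlapped.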
